A study of Mus musculus with 36 samples.

Results

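The comparison described here is that of normal mouse liver at ZT16 with normal mouse liver at ZT12, the first 4 h after lights-off. It takes the 6 arrays of control mice killed at each of these times, 12 of the 36 arrays of the series, chosen from the sample titles. Zeitgeber time (ZT) counts hours from lights-on, and lights went off at ZT12. The series set these controls beside mice lacking the insulin receptor gene Insr in hepatocytes, with 6 mice of either genotype at ZT8, ZT12 and ZT16. All were male, 11 weeks old, on a C57BL/6J background and fed chow freely. The controls are named IRhep+/+, and the knockouts, IRhep-/-, have loxP sites around exon 4 of Insr and a tamoxifen-inducible Cre recombinase driven by the transthyretin promoter, a promoter active in hepatocytes. The labels give neither the time of tamoxifen nor whether controls carried Cre or received it, and food intake and body temperature were not among the data used here. Each array held liver RNA of 1 mouse, so the p-values measure the spread between mice. Insr itself, the gene the series targets, lay between -1.86 and -1.02 on all 18 control arrays and between -3.95 and -2.94 on all 18 knockout arrays, in the log2 units explained next. Whether its probe reads exon 4 was not determined.

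The liver clock is a feedback loop in which BMAL1 (gene Arntl) and CLOCK switch on the Per, Cry, Nr1d and Dbp genes through E-boxes, and the PER, CRY and NR1D proteins then repress their own drivers. Heat shock factor HSF1 switches on the cytosolic chaperones, which fold proteins, while CIRBP and RBM3 are RNA-binding proteins known to rise in mild cold. Rhythms of feeding, body temperature and hormones are known to reach the liver beside its own clock, and mice feed and are active mainly in the dark.

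Levels are given as log2 of a probe's signal less the same array's 75th percentile, so 0 stands for that percentile and a difference of 1 is a 2-fold change. A gene is called where limma gave a Benjamini-Hochberg adjusted p under 0.05 over the 22892 genes tested, in a fit of all 36 arrays with wash batch as a term. The verbs rose and fell are kept for called genes. Of the genes tested, 830 were called (3.63%), with 380 higher at ZT16 (1.66%) and 450 lower (1.97%), and their median absolute change was 0.47. The change was at least 2-fold in 109 of them, 61 higher and 48 lower. The groups of 6 did not overlap for 708 genes (3.09%), 1.37% of all genes with ZT16 above and 1.73% with ZT16 below, and 432 of the 708 were called. The median change over all genes was 0.00.

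The overall signal of the arrays overlapped between the times. The 75th percentile was 371 ± 17.5 intensity units at ZT12 and 373 ± 51.1 at ZT16 (SD, n = 6), with a two-sided exact permutation p of 0.929, where the smallest possible is 0.00216. The share of spots well above background was 58.1% ± 1.43 at ZT12 and 57.8% ± 1.66 at ZT16 (SD, n = 6; exact p = 0.613). ZT16 replicate 6 lay furthest out on the first principal component of the 12 arrays, which held 21.1% of the variance. It lay at 53.6, the other ZT16 arrays between 3.02 and 22.9, and the ZT12 arrays between -44 and 9.29. On the second component, which held 14.4%, ZT16 replicate 3 lay at 41.5, ZT12 replicate 2 at 36.4 and ZT16 replicate 6 at -34.5. ZT16 replicate 6 was also the only ZT16 array of wash batch 1. Without it 434 genes were called, and without ZT12 replicate 6 the number was 461.

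**Figure D1:**
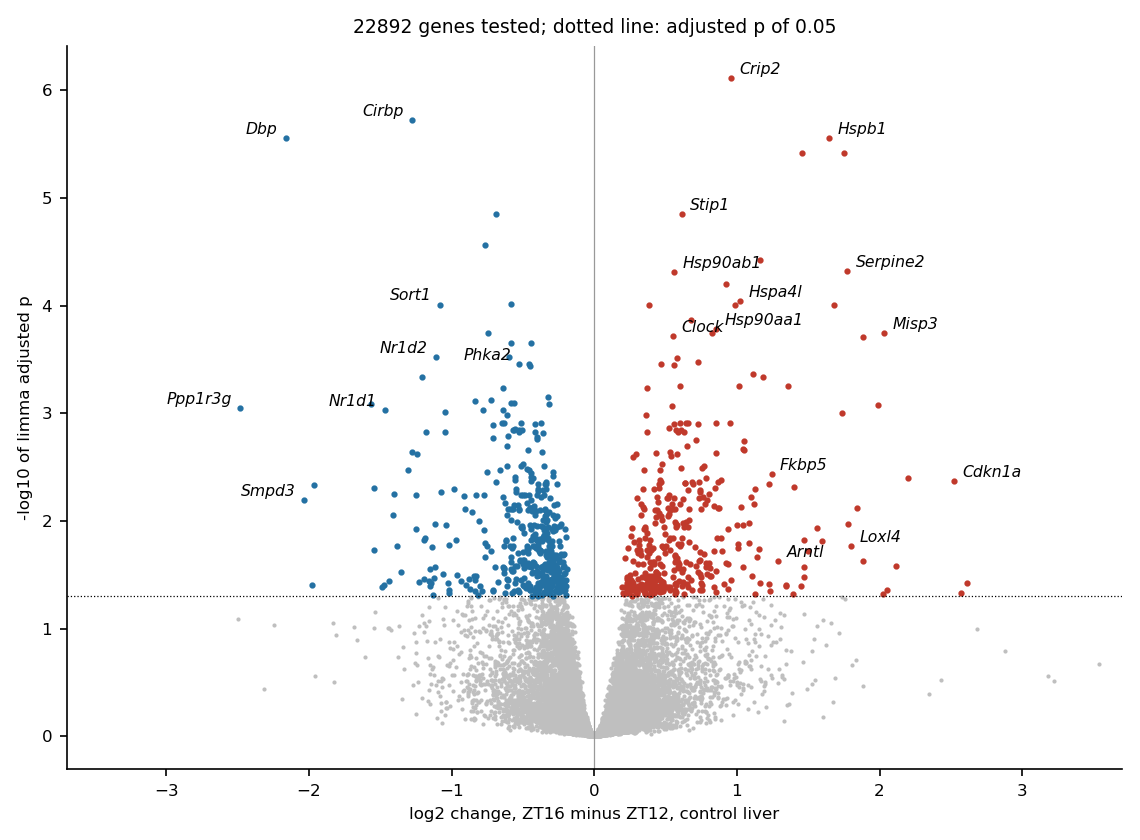
The plot shows each of the 22892 genes tested by its log2 change between ZT12 and ZT16 in control liver (x axis) and by -log10 of its limma adjusted p (y axis); red and blue points are the 380 and 450 genes called higher and lower. Hspb1 and Crip2 stand highest on the side of genes that rose, and Cirbp and Dbp on the side of genes that fell.

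Genes of the cytosolic heat shock response rose together. Of a list of 20 chaperones and co-chaperones, 12 rose and none fell, against 1.66% of all genes tested that rose, and the median change of the list was 0.55. The signs were positive for 19 of the 20, and for 9 of them the 2 groups did not overlap, against 1.37% of all genes that were higher without overlap. The list was chosen with earlier results of these data known, so its count is a description.

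Hspb1, which encodes the small heat shock protein HSP27, had the largest change of the list. Its signal ran from 3.37 to 3.77 at ZT12, with a median of 3.52, and from 4.91 to 5.71 at ZT16, with a median of 5.20. Every ZT16 mouse was above every ZT12 mouse by more than 1 unit. The change was 1.65 ± 0.18 (SE), a 3.13-fold rise with an adjusted p of 2.78e-06. Its probe lies at chr5:136365366-136365425 on the plus strand of build mm9. At ZT8 the mean was 2.87 ± 0.30 (SD, n = 6).

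The 2 cytosolic HSP90 genes are among the most abundant chaperones of the cell. Hsp90ab1, the constitutive form, ran from 7.18 to 7.40 at ZT12 with a median of 7.24, and from 7.75 to 7.93 at ZT16 with a median of 7.80. These narrow groups did not overlap, and the rise was 0.56 ± 0.08 (SE, 1.48-fold, adjusted p = 4.85e-05). Hsp90aa1, the inducible form, ran from 5.26 to 5.78 with a median of 5.43 at ZT12 and from 6.07 to 6.46 with a median of 6.27 at ZT16. It too was higher in each ZT16 mouse than in any ZT12 mouse, by 0.85 ± 0.13 (SE, 1.81-fold, adjusted p = 0.000164). Their helpers rose as well: Stip1, the adaptor that passes clients from HSP70 to HSP90, by 0.61 ± 0.08 (SE, adjusted p = 1.41e-05), Chordc1 by 0.64, Fkbp4 by 0.45 and Ahsa1, an activator of the HSP90 ATPase, by 0.35. Stip1 was read by a further probe whose change was 0.01, and with the probes averaged its adjusted p was 0.269.

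The HSP70 branch was divided between called and uncalled genes. Hspa8, the constitutive HSP70, ran from 6.41 to 6.83 at ZT12 (median 6.61) and from 7.09 to 7.27 at ZT16 (median 7.18), and rose by 0.54 ± 0.09 (SE, adjusted p = 0.000866). Of the 3 exchange factors of the HSP110 family on the list, which recharge HSP70, 2 rose about 2-fold, Hspa4l by 1.02 ± 0.14 (SE, adjusted p = 9.1e-05) and Hsph1 by 1.02 ± 0.17 (SE, adjusted p = 0.000563), both without overlap, while the third, Hspa4, had a change of -0.10 and was not called (adjusted p = 0.615). Of the J-domain partners, Dnajb1 rose by 0.53 (adjusted p = 0.0144) and Dnaja1 by 0.43 (adjusted p = 0.0299). The stress-inducible pair Hspa1a and Hspa1b had changes of similar size, 1.02 ± 0.42 and 1.06 ± 0.36 (SE), but wide groups, and neither was called (adjusted p = 0.205 and 0.101). Their near-identical sequences mean that a probe of one may read both.

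Within Hspa1b the spread is easy to see. Its signal ran from 1.08 to 2.74 at ZT12, with a median of 1.47, and from 2.30 to 3.63 at ZT16, with a median of 2.48. The groups overlapped through 1 high ZT12 mouse. The mitochondrial chaperonins Hspd1 and Hspe1 had changes of 0.07 and 0.17 and were not called (adjusted p = 0.80 and 0.32), nor were Cryab (0.21), Dnajb4 (0.38) and Bag3 (0.55). Hikeshi, a carrier that brings HSP70 into the nucleus and is not on the list, rose by 0.47 ± 0.07 (SE, adjusted p = 0.000351) without overlap. It was singled out after its value was seen.

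The count for the heat shock list varied little between settings. It was 11 or 12 in each of the 12 refits that left out 1 array, 12 without ZT16 replicate 6, and 10 in a fit of the 12 arrays alone. The call that came and went was that of Dnaja1, lost without ZT12 replicates 1, 3, 4 or 6 or ZT16 replicates 3, 4 or 5, with an adjusted p of up to 0.0666.

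**Figure D2:**
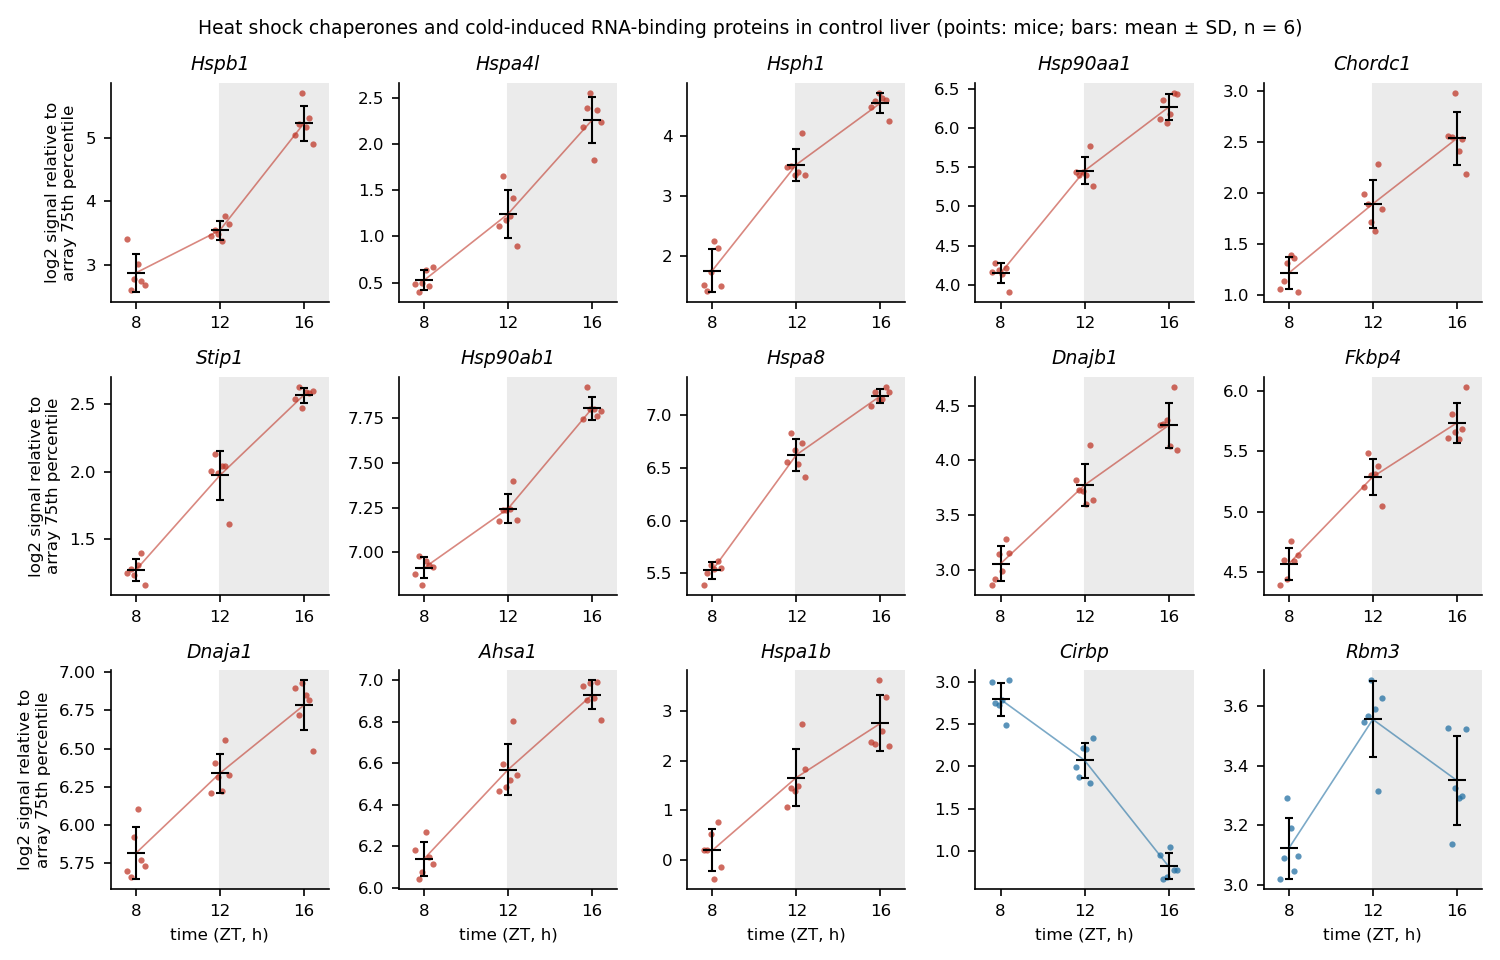
Each panel shows 1 gene in control liver, with time (ZT, h) on the x axis, log2 signal relative to the array's 75th percentile on the y axis, a point per mouse and the mean ± SD (n = 6); grey marks the dark. The first 12 panels are the called chaperones, Hspa1b was not called, Cirbp fell from a median of 2.10 at ZT12 to 0.77 at ZT16, and Rbm3 was not called.

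Cirbp fell while the chaperones rose. Its signal ran from 1.81 to 2.34 at ZT12, with a median of 2.10, and from 0.67 to 1.05 at ZT16, with a median of 0.77. No mouse of either group came near the other group. The change was -1.28 ± 0.14 (SE), a 2.43-fold fall with an adjusted p of 1.9e-06. It was between -1.19 and -1.32 within each of the 3 wash batches. These held 1, 2 and 3 of the ZT16 arrays and 2 ZT12 arrays each. The probe lies at chr10:79634233-79634292 on the plus strand of mm9. Of its 3 probes the weakest change was -0.19, and with the probes averaged the fall was smaller, -0.83 on the log2 scale, and called (adjusted p = 3.68e-05). Rbm3, the other cold-induced member, had a change of -0.18 ± 0.08 (SE) with overlapping groups and was not called (adjusted p = 0.242).

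Other RNA-binding proteins changed in either direction. Hnrnpd, an RNA-decay factor, fell by 0.59 ± 0.09 (SE, adjusted p = 0.000221). Hnrnpc, a nuclear RNA-packaging protein, rose by 0.39 ± 0.05 (SE, adjusted p = 9.8e-05). Neither overlapped between the groups, and both were singled out after their values were seen.

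Some promoters of these genes carry the letters that the factors named above are known to read, and a few stretches are shown here to let the motif be compared. They are RefSeq promoter sequences on build GRCm38.p6, written 5′ to 3′ in the direction of the gene, with the matched letters in capitals. Hspb1, the largest riser of the heat shock list, has no full heat shock element in its window, and is shown with its 2-unit matches, GAANNTTC or TTCNNGAA, a motif added after the data were seen, at chr5:135887777-135887854 on the plus strand.
Hspb1: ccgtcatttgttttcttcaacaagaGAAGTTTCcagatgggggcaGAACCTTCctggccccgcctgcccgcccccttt
Hsph1 (chr5:149636287-149636308, minus strand) and Chordc1 (chr9:18292260-18292288, plus strand) both rose and hold the 3-unit element, GAANNTTC followed by NNGAA on either strand, close to the start, Chordc1 with 3 overlapping matches.
Hsph1: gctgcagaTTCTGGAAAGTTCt
Chordc1: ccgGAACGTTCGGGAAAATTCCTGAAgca
Hspe1 (chr1:55088034-55088101, plus strand) holds the same element, 2 overlapping matches, but was not called.
Hspe1: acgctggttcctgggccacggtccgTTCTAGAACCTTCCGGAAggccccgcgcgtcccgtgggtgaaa

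The 3-unit element was found in 4 of the 16 heat shock genes with a window, namely Hsph1, Chordc1, Hspe1 and Hspd1, and in 76 of the 13227 tested genes with one (0.575%). Over all 32851 windows of 300 bases the share was 0.603%. Among the 12 called genes of the heat shock list, 9 had a window, and 2 of these 9 held the element. Hspa8, Hsp90aa1, Hsp90ab1 and Cryab had no entry in the table. The shorter 2-unit form is far commoner, in 14.6% of tested genes. A match describes these letters only, and the absence of one says only that they are not in this window.

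The called clock genes were Arntl and Clock, which rose, and Nr1d1, Nr1d2, Per3 and Dbp, which fell. Of 5 genes tested on the list of activators, which also holds Nfil3, a repressor that opposes DBP at D-boxes, 2 rose and none fell (median 0.48, the value of Nfil3 itself); of 10 repressors, 3 fell and none rose (median -0.05); of 3 output factors, Dbp fell and the other 2 were not called. Of all genes tested, 1.66% rose and 1.97% fell.

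Dbp, a transcription factor driven directly by the clock, had the largest fall that met the naming rule: its change of -2.16 ± 0.24 (SE) was a 4.48-fold fall with an adjusted p of 2.78e-06. The signal ran from 3.24 to 5.07 at ZT12, with a median of 4.11, and from 1.06 to 2.68 at ZT16, with a median of 1.94. The lowest ZT12 mouse was above the highest ZT16 mouse. At ZT8 the 6 controls had lain between 6.48 and 6.72. Its relatives Tef (-0.29, adjusted p = 0.208) and Hlf (0.08, adjusted p = 0.90) had overlapping groups.

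The repressors that fell were the 2 REV-ERB receptors and Per3. Nr1d2 (REV-ERBβ) ran from 1.54 to 2.77 at ZT12 (median 1.95) and from 0.20 to 1.35 at ZT16 (median 1.09), a fall of 1.11 ± 0.17 on the log2 scale (SE, adjusted p = 0.000303) without overlap. Nr1d1 (REV-ERBα) ran from -3.74 to -2.39 at ZT12 and from -5.39 to -3.81 at ZT16, against a mean of 1.16 ± 0.20 at ZT8 (SD, n = 6). It fell by 1.47 ± 0.25 on the log2 scale (SE, adjusted p = 0.000931) and was well above background on 5 of the 6 ZT16 arrays. With normexp and quantile normalization the change of Nr1d1 was -0.54, and it was called. Per3 fell by 0.77 ± 0.16 (SE, adjusted p = 0.00578) without overlap. In a fit of the 12 arrays alone, the adjusted p was 0.0652 for Nr1d2, 0.058 for Nr1d1 and 0.0515 for Per3, and in the authors' value table Per3 had an adjusted p of 0.753.

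The other 7 repressors were not called. Per1, a PER gene that light and hormones can induce, ran from 3.28 to 4.13 at ZT12 (median 3.64) and from 3.49 to 3.92 at ZT16 (median 3.76), and its change was -0.02 ± 0.21 (SE), with a 95% interval from -0.44 to 0.40. Per2 ran from 3.00 to 3.28 and then from 3.25 to 3.67, a change of 0.34 ± 0.16 (SE) that was not called (adjusted p = 0.269). Cry1, a strong late repressor, had a change of 0.63 ± 0.21 (SE, adjusted p = 0.0885) with overlapping groups, and Cry2 one of 0.09. Ciart (-0.49), Bhlhe40 (-0.09) and Bhlhe41 (0.03, not well above background on any of the 12 arrays) were not called.

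On the activating side, Clock rose by 0.55 ± 0.08 (SE, adjusted p = 0.000192), from 1.24 to 1.60 at ZT12 to between 1.68 and 2.05 at ZT16, without overlap. Arntl rose by 1.29 ± 0.33 (SE, 2.44-fold, adjusted p = 0.0238). It ran from -1.93 to -0.36 at ZT12 (median -1.04) and from -0.42 to 0.70 at ZT16 (median 0.13), so the groups met at their edges. Its call was lost in 5 of the 12 refits, those without ZT12 replicates 1 or 6 or ZT16 replicates 2, 3 or 6, where the adjusted p reached 0.0874, and in the fit of the 12 arrays alone it was 0.0728. Rora (-0.14), and Nfil3 (0.48) of the same list, were not called.

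**Figure D3:**
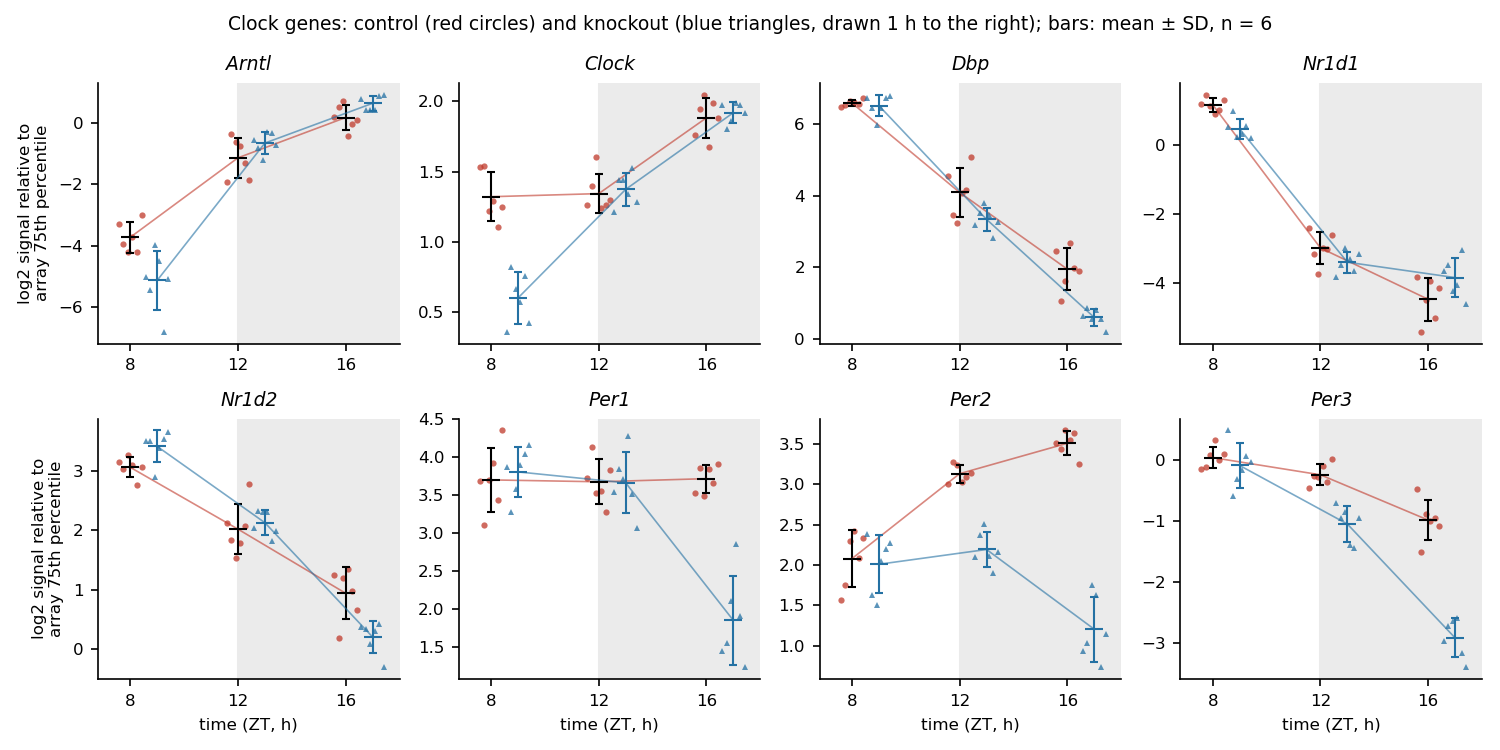
Each panel shows 1 clock gene in controls (red circles) and knockouts (blue triangles, shifted to the right), with time (ZT, h) on the x axis, log2 signal relative to the array's 75th percentile on the y axis and the mean ± SD (n = 6). Per1 stays between 3.28 and 4.13 in the control mice from ZT12 to ZT16 while the knockout median falls from 3.63 to 1.73.

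In the knockouts, which share no mice with the controls, the Per genes took another course. The change from ZT12 to ZT16 was called for 12.6% of genes in knockouts, and its difference from the control change for 1.96%. Per1 fell by 1.85 in knockouts, a difference from controls of -1.83 ± 0.29 (SE, adjusted p = 0.00155). Per2 fell by 1.02 in knockouts, a difference of -1.36 ± 0.22 (SE, adjusted p = 0.00155). For Arntl and Clock the changes in knockouts were 1.28 and 0.57, and the differences from controls were 0.00 ± 0.46 and 0.02 ± 0.12 (SE), neither called. Of the heat shock list, 9 of 20 rose in knockouts, and no difference from controls was called (lowest adjusted p 0.14, Dnaja1). The median change of the list was 0.35 in knockouts and 0.55 in controls. Hspa8, Dnajb1, Chordc1 and Dnaja1, which rose in controls, were not called in knockouts (0.21, 0.23, 0.28 and -0.04). The rest of the chaperones called in controls rose in knockouts too. Cirbp had a change of -0.37 in knockouts (adjusted p = 0.0739), which differed from that in controls by 0.91 ± 0.19 (SE, adjusted p = 0.0089).

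Clock promoters in the same RefSeq table were searched for motifs known from the feedback loop. From these, 3 are shown to set a gene that rose beside one that fell and one that was not called. Clock rose and has the letters AGGTCA, searched for as the ROR element without regard to the bases beside them. They lie on the minus strand of the gene, within chr5:76303591-76303646 (minus strand).
Clock: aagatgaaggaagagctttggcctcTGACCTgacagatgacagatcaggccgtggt
Per3 fell and has 2 D-boxes, the motif TTATGTAA or TTACGTAA read by DBP and NFIL3, at chr4:151044791-151044895 (minus strand).
Per3: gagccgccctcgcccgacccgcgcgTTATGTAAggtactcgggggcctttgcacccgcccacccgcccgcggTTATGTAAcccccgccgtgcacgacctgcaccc
Per1 was not called and has an E-box, CACGTG, at chr11:69098758-69098813 (plus strand).
Per1: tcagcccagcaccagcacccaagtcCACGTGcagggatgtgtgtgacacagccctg

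The letters AGGTCA were found in 3 of the 4 genes of the activator list with a window (Arntl, Clock and the D-box repressor Nfil3) and in 16.4% of tested genes. The E-box was found in 4 of 8 repressors (Per1, Cry1, Ciart and Bhlhe41), none of which was called, and in 10.6% of tested genes. The D-box was found in 1 of 8 repressors and in 1.08% of tested genes.

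Among all genes, the largest rise that met the naming rule was that of Cdkn1a, which encodes the cell-cycle inhibitor p21. Its signal ran from -2.63 to 0.31 at ZT12 (median -1.87) and from 0.38 to 1.76 at ZT16 (median 1.24), so that the 2 highest ZT12 mice, at 0.25 and 0.31, lay just under the lowest ZT16 mouse. The rise was 2.52 ± 0.51 (SE, 5.74-fold, adjusted p = 0.00429). In the fit of the 12 arrays alone its adjusted p was 0.0666. At ZT8 its mean was -4.17 ± 0.34 (SD, n = 6). The probe lies at chr17:29237377-29237436 on mm9.

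Serpine2, a secreted inhibitor of serine proteases, ran from 0.39 to 1.84 at ZT12 (median 0.61) and from 2.36 to 3.15 at ZT16 (median 2.70). It rose by 1.77 ± 0.24 (SE, 3.42-fold, adjusted p = 4.78e-05). Misp3 ran from -3.88 to -3.04 and then from -2.18 to -0.30 and rose by 2.03 ± 0.30 (SE, adjusted p = 0.00018), or by 1.103 for Misp3 with normexp and quantile normalization. The histone gene H3c15 rose by 1.36 and Lad1, a basement-membrane anchor, by 1.23. Each of these kept its call in all 12 refits. Crip2, a LIM-domain protein, had the smallest p of all genes and rose by 0.96 ± 0.09 (SE, adjusted p = 7.77e-07), from between 4.22 and 4.69 to between 5.15 and 5.62. It and P4ha1 (0.93, adjusted p = 6.27e-05), a collagen prolyl hydroxylase, were singled out after their values were seen.

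Fkbp5, a co-chaperone of the glucocorticoid receptor and a classical target of that hormone, ran from 2.98 to 4.49 at ZT12 (median 3.63) and from 4.56 to 5.22 at ZT16 (median 4.86). It rose by 1.24 ± 0.25 (SE, adjusted p = 0.00371). A further probe gave 0.44, and with both averaged the change was 0.84 and was not called (adjusted p = 0.127). In knockouts it fell by 0.92, a difference from controls of -2.16 ± 0.35 (SE, adjusted p = 0.00155). Fkbp5 was the 1 called member of 11 glucocorticoid targets, whose median was 0.25, against 3.63% of all genes tested that were called. Of the 11, 7 had a positive change and 4 a negative one, the lowest -0.25. A positive change was seen in 11398 of all 22892 genes tested. Mt1 had a change of 1.12 ± 0.33 (SE, adjusted p = 0.0567) and Tsc22d3 one of 0.57.

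The remaining large rises were of transcripts whose calls were less steady, given here as changes. Itgae, an integrin chain of lymphocytes, rose by 1.23, the kinase gene Srms by 1.14, Lzts1 by 1.13 and the unnamed transcript Gm35933 by 1.45. The groups of all 4 did not overlap, and Srms, for one, ran from -4.04 to -2.92 at ZT12 and from -2.53 to -2.21 at ZT16. Srms was lost without ZT12 replicates 1, 5 or 6 or ZT16 replicates 3 or 6 (adjusted p up to 0.0626), and Lzts1 without ZT12 replicates 1, 4, 5 or 6 or ZT16 replicates 1, 3 or 6 (up to 0.181). Itgae and Gm35933 kept their calls in 4 refits, those without ZT12 replicates 2 or 3 or ZT16 replicates 4 or 5, with adjusted p up to 0.0964 and 0.14. With normexp and quantile normalization the changes of Itgae, Srms and Lzts1 were 0.61, 0.50 and 0.52. Over the alternative processing settings, Lzts1 was called in 6 of 15, with a limma adjusted p of up to 0.227. Gm35933 was called in 11 of 14, Itgae in 12 of 14 and Srms in 13 of 14.

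Smpd3, which encodes a neutral sphingomyelinase, had the largest fall outside the clock among genes well above background on all 12 arrays that met the naming rule. It ran from -2.46 to -1.07 at ZT12 (median -1.75) and from -4.52 to -3.18 at ZT16 (median -3.72), a fall of 2.03 ± 0.43 on the log2 scale (SE, adjusted p = 0.0064). Sort1, the sorting receptor sortilin known from VLDL secretion, ran from 1.02 to 2.34 and then from 0.43 to 0.93, and fell by 1.08 ± 0.15 (SE, adjusted p = 9.8e-05). Its 3 probes gave changes from -1.08 to -0.11. Gnat1, a transducin subunit, fell by 1.40, the galactosyltransferase gene B3galt1 by 1.30 and Tnfrsf19, a TNF receptor family member, by 1.21. The transcript 0610031O16Rik fell by 1.24, Ctrc, a pancreatic protease gene, by 1.08 and Syt1, a vesicle calcium sensor, by 1.05, but in each of these 3 a further probe gave a change of the opposite sign, 0.19, 0.01 and 0.21. With normexp and quantile normalization the changes of Smpd3 and Gnat1 were -1.09 and -0.74, both called. With the probes averaged, the adjusted p was 0.0763 for 0610031O16Rik and 0.195 for Syt1, and in the fit of the 12 arrays alone it was 0.0692 for B3galt1 and 0.0637 for Ctrc.

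In knockouts the changes of Serpine2, Gnat1, Cirbp, Tnfrsf19 and Sort1 were 0.20, 0.25, -0.37, 0.08 and -0.01, none of them called, and the difference from controls was called for each. Of the 830 genes called in controls, 328 (39.5%) were also called in knockouts with the same sign, which is 11.4% of the knockout calls. The sign was opposite for 10, and for 80 (9.64%) the difference between genotypes was called.

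Loxl4, a lysyl oxidase of the extracellular matrix, and an unnamed non-coding transcript on chr9 were well above background on all 6 ZT16 arrays and on none at ZT12, so that only a bound can be given. Against the dimmest signal that was well above background, Loxl4 (probe at chr19:42668733-42668792) was at least 2.81-fold higher at ZT16 (adjusted p = 0.0171) and the transcript (probe at chr9:118079301-118079360) at least 1.71-fold (adjusted p = 0.0105). Loxl4 ran from -5.80 to -4.90 at ZT12 and from -4.69 to -2.51 at ZT16. Without ZT12 replicate 6 or ZT16 replicate 6 it was no longer called (adjusted p up to 0.0737), nor with slide as a fixed block (Loxl4 adjusted p = 0.0564). These bounds hold for the scaling used here: with normexp and quantile normalization, the change was 0.47 for Loxl4 and 0.20 for the chr9 transcript on the log2 scale, both called and both under those bounds.

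The glycogen list moved in part, with 3 of 12 genes down and 1 up (median -0.13), against 1.97% of all genes tested that fell and 1.66% that rose. Glycogen synthesis is steered by protein phosphatase 1, which targeting subunits bring to the glycogen particle. Ppp1r3g, a subunit known from the fasting-to-feeding switch, ran from -4.07 to -1.48 at ZT12 (median -2.68) and from -6.73 to -4.45 at ZT16 (median -4.92). It fell by 2.48 ± 0.43 on the log2 scale (SE, adjusted p = 0.000891) without overlap, and was well above background on 2 of the 6 ZT16 arrays, so the size rests on dim spots. With normexp and quantile normalization the adjusted p was 0.131.

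Ppp1r3c, another targeting subunit, went the other way. It ran from -0.01 to 2.56 at ZT12 (median 1.61) and from 2.49 to 3.26 at ZT16 (median 2.69), a rise of 1.16 ± 0.32 (SE, adjusted p = 0.0375) in which the ZT12 mice were widely spread. The call held in 4 refits, those without ZT12 replicates 2, 3 or 4 or ZT16 replicate 5, and the adjusted p reached 0.116. Phka2, the liver regulatory subunit of phosphorylase kinase, ran from 2.02 to 2.37 and then from 1.41 to 1.87 and fell by 0.53 ± 0.08 (SE, adjusted p = 0.000351), in all 12 refits. Ugp2, which makes UDP-glucose, fell by 0.46 ± 0.13 (SE, adjusted p = 0.038), a call that held only without ZT12 replicate 6 or ZT16 replicate 4 and otherwise reached 0.0981. Glycogen synthase Gys2 had a change of -0.33 without overlap and was not called (adjusted p = 0.169).

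Chaperones of the endoplasmic reticulum leaned upward but mostly within their spread. Of 20 genes, 2 rose and none fell, 19 had a positive change, and the median was 0.25. Of all 22892 genes tested, 1.66% rose and 11398 had a positive change. Creld2 ran from 4.84 to 6.38 at ZT12 (median 5.54) and from 5.96 to 7.05 at ZT16 (median 6.41), a rise of 0.93 ± 0.27 (SE, adjusted p = 0.043), and Sdf2l1 rose by 0.96 ± 0.26 (SE, adjusted p = 0.0355). For either gene the ZT12 and ZT16 mice overlapped. The count depended on the array left out. It was 0 without ZT12 replicates 2, 3, 4 or 6 or ZT16 replicates 2, 3, 4 or 6, and 7 without ZT12 replicate 5, the ZT12 mouse in which both genes were highest. Hspa5 (BiP), the main chaperone of the compartment, had a change of 0.39 ± 0.14 (SE, adjusted p = 0.124). In knockouts, where 12.6% of all genes tested were called in either direction, 12 of the 20 rose and 1 fell. No difference from controls was called (lowest adjusted p 0.0832, Calr).

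The ER stress element, CCAAT and CCACG with 9 bases of any kind between them, on either strand, was found in the window of 8 of the 18 genes of this list that have one, and in 0.174% of tested genes. The match in Creld2, a called gene, is shown for its spacing, at chr15:88819495-88819563 (plus strand).
Creld2: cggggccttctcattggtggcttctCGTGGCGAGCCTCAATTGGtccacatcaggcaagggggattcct
The other 7 were Hspa5, Hsp90b1, Calr, Canx, Pdia6, Dnajc3 and Derl3, none of which was called.

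Few genes of the metabolic lists were called. Over all 22892 genes tested, 3.63% were called, 1.97% fell and 11494 had a negative change. Of 15 genes of fatty acid synthesis, the malic enzyme gene Me1 fell by 0.84 ± 0.24 (SE, adjusted p = 0.0453), 13 had a negative change and the median was -0.25. Me1 ran from 5.07 to 6.15 at ZT12 and from 4.31 to 5.31 at ZT16, and its call held only without ZT12 replicate 3 or ZT16 replicate 5. Elovl6 had a change of -0.75 (adjusted p = 0.0683) and Gpam one of -0.61 (adjusted p = 0.116). No gene was called among 24 of cholesterol synthesis and uptake (median -0.23; smallest p Stard4, -0.27, adjusted p = 0.116), 11 FoxO and gluconeogenic genes (median -0.09) or 19 of amino acid catabolism and the urea cycle (median 0.17; Nags, 0.31, adjusted p = 0.0587).

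Irs2, the insulin receptor substrate that FoxO controls, had the smallest p of the FoxO list, and its ZT16 mice were divided. It ran from 0.32 to 0.98 at ZT12 and from 0.43 to 2.68 at ZT16, with 3 ZT16 mice between 1.77 and 2.68 and the other 3 between 0.43 and 0.67. Its change was 0.68 ± 0.29 (SE, adjusted p = 0.226). Pck1, the gluconeogenic enzyme, had a change of -0.34 ± 0.17 (SE, adjusted p = 0.335).

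Of 22 PPARα targets and oxidation genes, Bdh1, which interconverts ketone bodies, fell, against 1.97% of all genes tested that fell. It ran from 5.41 to 5.73 at ZT12 (median 5.51) and from 4.66 to 5.16 at ZT16, and fell by 0.57 ± 0.10 (SE, adjusted p = 0.00143) in all 12 refits. Abcc2, the canalicular exporter MRP2, was the called gene of 15 of bile acid synthesis and transport, with a fall of 0.41 ± 0.11 (SE, adjusted p = 0.0263) that was lost without ZT12 replicates 4 or 6 or ZT16 replicates 2 or 3 (up to 0.0828). Chac1, an ATF4 target that degrades glutathione, was the called gene of 15 of the ATF4 response and fell by 1.49 ± 0.42 (SE, adjusted p = 0.0412). One ZT16 mouse, replicate 3, lay at 0.82 and the others at or below -0.77. The call held only without that mouse or ZT12 replicates 3 or 5, and otherwise reached 0.144.

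In the xenobiotic list 2 of 15 members rose, with uneven groups, against 1.66% of all genes tested that rose. Cyp2b10, a cytochrome P450 under the receptor CAR, ran from 0.74 to 4.66 at ZT12 (median 2.06) and from 2.98 to 6.01 at ZT16 (median 4.00), a change of 2.03 ± 0.59 (SE, adjusted p = 0.048). Within wash batches 1, 2 and 3 the change was 4.63, 3.00 and -0.09. These batches held 1, 2 and 3 of the ZT16 arrays and 2 ZT12 arrays each. The ZT16 array of batch 1 was replicate 6, the highest ZT16 mouse at 6.01. The call of Cyp2b10 held only without ZT12 replicate 2 or ZT16 replicates 2, 4 or 5, and its adjusted p otherwise reached 0.197. Sult1a1, a sulfotransferase, rose by 0.57 ± 0.16 (SE, adjusted p = 0.0437), a call lost without ZT12 replicates 1, 5 or 6 or ZT16 replicates 1, 3, 5 or 6 (up to 0.147).

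Few members were called in 3 further lists, against 3.63% of all genes tested that were called. Ccne1 (cyclin E1) fell by 1.13 ± 0.33 (SE, adjusted p = 0.0486) and with Cdkn1a made up the calls among 15 cell-cycle genes, whose median was -0.31. The NAD-making enzyme gene Nmnat3 fell by 0.45 ± 0.13 (SE, adjusted p = 0.0401; 1 of 10 genes, with a further probe at 0.22) and nucleolin, Ncl, by 0.30 ± 0.08 (SE, adjusted p = 0.0353; 1 of 33 genes of ribosome biogenesis). Each was lost in 8 or 9 refits. Ccne1 kept its call only without ZT12 replicates 2 or 3 or ZT16 replicate 4, Nmnat3 without ZT12 replicates 1, 2 or 5 or ZT16 replicate 1, and Ncl without ZT12 replicates 2, 3 or 5 or ZT16 replicate 4, and the adjusted p reached 0.211, 0.0928 and 0.122. No member was called of the 14 immediate early genes (Egr1, -1.13, adjusted p = 0.229), 9 of growth hormone signalling (Igf1, 0.25, adjusted p = 0.0569, with probes from -0.79 to 0.25) or 18 acute phase proteins (Crp, 0.25, adjusted p = 0.416).

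**Figure D4:**
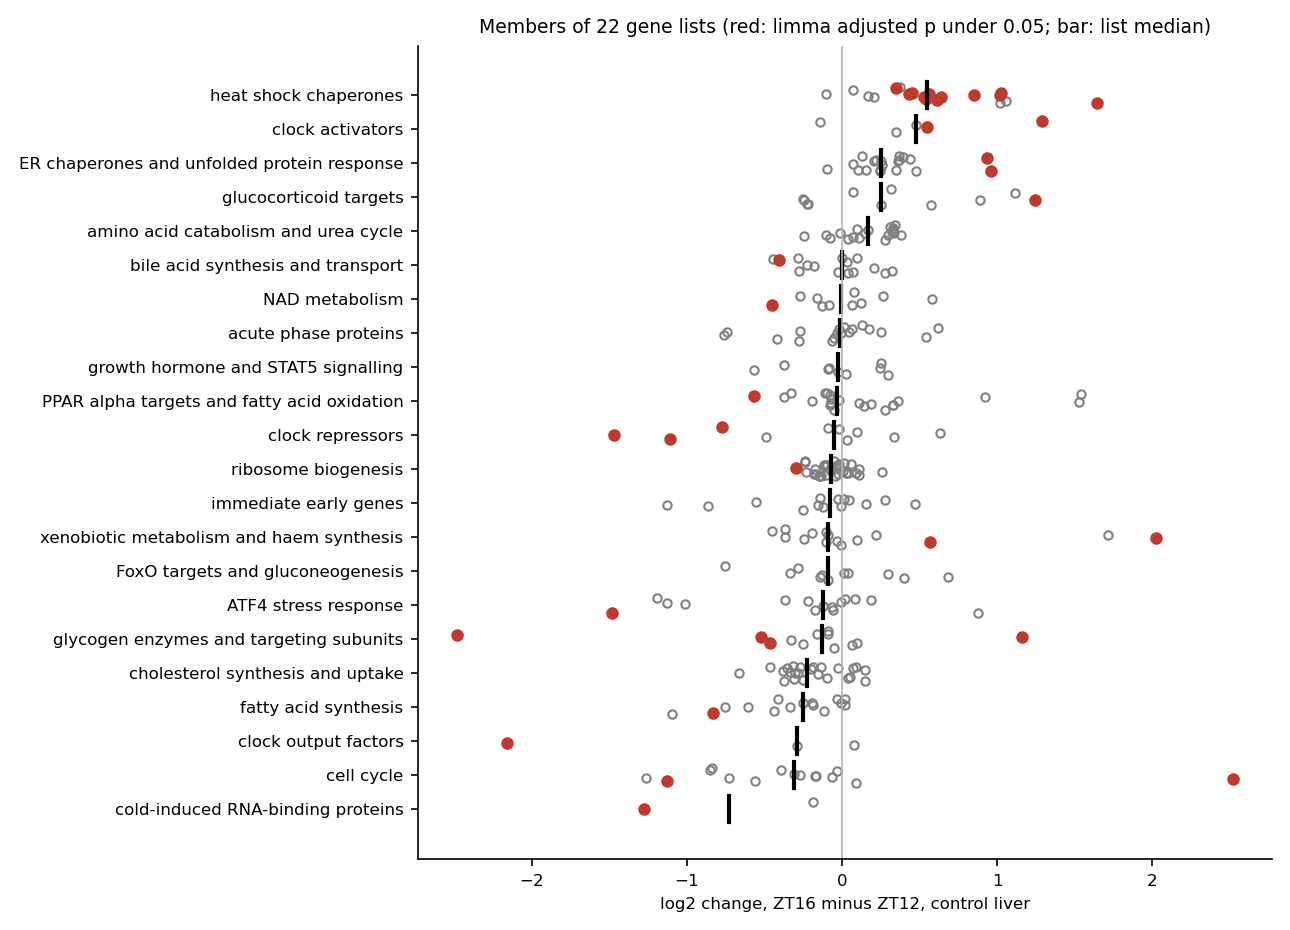
Each row is 1 of the 22 gene lists, each point a member placed by its log2 change between ZT12 and ZT16 in control liver (x axis), filled red where called, and the bar is the list's median. The heat shock list lies furthest to the right, with a median of 0.55 and 12 red points, while most other lists centre between -0.31 and 0.25 with few called members.

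Markers of the cell types of liver were compared in the same way, beside the 3.63% of all genes tested that were called. None of 10 hepatocyte markers was called, and their summed linear signal, relative to the 75th percentile, ran from 4896 to 5413 at ZT12 and from 4930 to 5890 at ZT16. In bulk tissue, fewer cells of a type and less RNA per cell cannot be told apart. Among markers of stellate cells, macrophages, endothelium, bile duct, red cells, lymphocytes, neutrophils, pancreas, fat and mesothelium, 1 gene was called, Des of the stellate list, which rose by 1.04 ± 0.27 (SE, adjusted p = 0.0269) and was well above background on 3 ZT12 and 6 ZT16 arrays. That call was lost without ZT12 replicates 4, 5 or 6 or ZT16 replicates 3 or 6 (up to 0.108). The summed fat markers ran from 294 to 413 at ZT12 and from 117 to 271 at ZT16. Nearly all of this sum was Car3, which hepatocytes also express (-0.73, adjusted p = 0.269). Cfd had a change of -1.11 ± 0.57 (SE, adjusted p = 0.336) with overlapping groups. It was well above background on 6 ZT12 and 2 ZT16 arrays. Lep, well above background on 6 ZT12 and 6 ZT16 arrays, had a change of -0.14 (adjusted p = 0.635). Adipoq, Plin1 and Retn were dim in both groups. The part of any of these in the changes above was not tested.

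Many calls were lost when a single array was left out, and others were kept. Whether a lost call came from that mouse or from the smaller number of arrays was not tested. When each of the 12 arrays was left out in turn, the number of genes called ran from 434 to 883. It was lower by more than 1.5 times without ZT12 replicates 1, 4 or 6 (543, 517 and 461) and without ZT16 replicates 2, 3 or 6 (536, 514 and 434). Of the 830 genes, 314 were called in all 12 refits, 148 higher and 166 lower, and 296 in 6 or fewer. Of the 109 genes with at least a 2-fold change, 54 were called in all 12. Among the genes called each time were 11 of the 12 called chaperones, Cirbp, Dbp, Nr1d1, Nr1d2, Per3, Clock, Cdkn1a, Serpine2, Fkbp5, Sort1, Bdh1, Phka2 and Ppp1r3g.

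**Figure D5:**
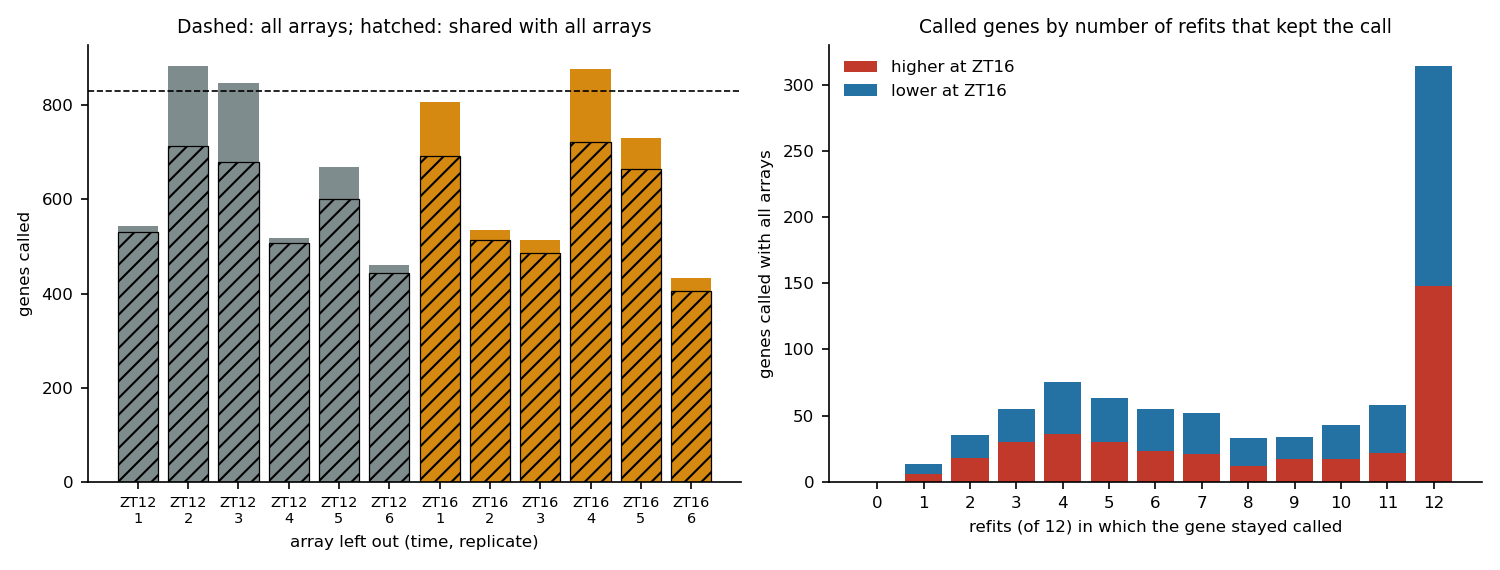
Left, the number of genes called (y axis) when the array named on the x axis was left out, grey for ZT12 and orange for ZT16, with the part shared with the 830 calls of all arrays hatched and that number dashed. Right, the 830 called genes by the number of the 12 refits that kept their call, red for genes higher and blue for genes lower at ZT16; 314 stand at 12.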

How the data were processed

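Liver RNA of 36 mice (6 groups of 6) was measured on 36 one-colour Agilent arrays, 200 ng of RNA each per the labels' protocols. Scanner values were read with Agilent Feature Extraction 10.10.1.1, per the submitters' processing notes. Deposited processed signals are intensity values on a linear scale, background-subtracted and not normalized between arrays, per the file headers; the deposited spot flags are other values of 0 or 1. The authors' value table holds log2 values of 32801 probes with identical sorted columns, hence quantile normalized. Its slope against the scanner values is 0.623 and the share of variance per probe explained by wash batch has a median of 0.00813%, compared with 4.41% for scanner values; how it was made is not given in the sources used here. It served as an alternative.

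Each array's log2 processed signal was shifted so that the 75th percentile of its gene spots is 0. Outlier spots were left out, and no spot was saturated. A probe needed 6 of 36 arrays flagged well above background to be tested (34769 probes; 91 without a value on every array were dropped), 1 per gene, that with the highest mean: 22892 genes, 16806 with a RefSeq symbol. Of 56605 probes, 43738 were named through the RefSeq table, 2055 of them differently from the file. Probe positions are on mm9, per the file headers.

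limma 3.58.1 (R 4.3.3; lmFit, eBayes) fitted 6 group means and wash batch (3 batches, 28 residual and 2.25 prior degrees of freedom), with Benjamini-Hochberg adjustment and a threshold of 0.05. The difference between genotypes came from the same fit. The script was tested on simulated data. The number of arrays limits the precision. Named are the 12 largest rises and 12 largest falls among called genes with a symbol, no overlap between groups and all 12 arrays well above background, with all clock genes, up to 4 called members of each other list by p (or the member with the smallest p), and called genes above background in only 1 group. Some genes that meet this rule are not reported here. Other names are said to be chosen after their values were seen, or belong to a list. The comparison, the 22 lists and the markers were chosen with earlier results of these data known. Alternatives covered background correction, scaling, the filter on dim probes, wash batch, slide, the samples fitted, array weights, probes per gene and single arrays. Promoter windows of 300 bases come from RefSeq (GRCm38.p6) and motifs were searched on both strands.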

Additional observations from a re-analysis of the deposited data

Results flagged for a closer look

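In the 124 groups of 6 searched for a single array far from the rest, 8 had one, and chance gives about 1 in 20 (6.2). For ZT12 these were Tnfrsf19 in replicate 1, at -1.11 against -0.51 to -0.17 in the others; Tef in replicate 6, at 6.69 against 6.15 to 6.26; Stip1 in replicate 6, at 1.62 against 1.99 to 2.13; Hsp90ab1 in replicate 5, at 7.40 against 7.18 to 7.24; and the share of spots well above background in replicate 5, at 55.2% against 58.4% to 58.9%. For ZT16 they were Hsp90ab1 in replicate 2, at 7.93 against 7.75 to 7.81; Chac1 in replicate 3, at 0.82 against -1.62 to -0.77; and Ppp1r3g in replicate 6, at -6.73 against -5.08 to -4.45.

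The change from ZT12 to ZT16 differed between knockouts and controls for 12 of the named genes that were called or belong to the clock lists, by limma's test of the difference itself. Knockout minus control was negative for Ciart (-2.37), Fkbp5 (-2.16), Per1 (-1.83), Serpine2 (-1.57), Per2 (-1.36), Per3 (-1.12), Tef (-0.91) and Cry2 (-0.64). It was positive for Gnat1 (1.65), Tnfrsf19 (1.28), Sort1 (1.07) and Cirbp (0.91). For Ciart the change was -0.49 in controls and -2.85 in knockouts, and for Tef it was -0.29 and -1.20. All 12 had an adjusted p under 0.05, from 0.00155 for Fkbp5, Per1 and Per2 to 0.0307 for Gnat1. Among other genes given in the text, none called in controls, Igf1 differed by -0.41 (limma adjusted p = 0.0373), Mt1 by -1.93 (0.0264) and Gys2 by -0.745 (0.0274).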

How the results depend on the processing

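The count of 830 genes became 491 with no filter on dim probes, 336 with slide as a fixed block and 327 in a fit of only the 2 groups compared, which shared 256 calls with it; the other settings run with all control arrays gave 582 to 1122, the highest for a fit of the 18 control arrays, an alternative added after the data were seen. The share of higher calls was 45.8%, and 55.0% with the 75th percentile taken over probes well above background on all arrays, which moved the median of all genes by 0.03. Leaving out knockout ZT8 replicate 3, an array outside the comparison, gave 1047 genes. Leaving out 1 array of the groups compared gave 434 to 883 genes for the control change, and 247 to 596 for the difference between genotypes. That difference counted 449 genes, 254 with no filter, 271 with only the groups compared and 1080 with array weights. Among the named genes that were called, Cyp2b10 changed sign, to -0.085 within wash batch 3, and no other did under the settings run; of those not called, Igf1, Crp, Per1 and Bhlhe41, for example, changed sign under some settings. With quantile normalization, also added later, 305 genes in place of 314 were called in all 12 refits. Same-numbered mice did not deviate together (correlations from -0.19 to 0.02, none the best match), so the numbers do not pair the samples; with a replicate block 831 and 384 genes were called. Signal near background limits Ppp1r3g, Nr1d1, Loxl4, Bhlhe41, Des and the chr9 transcript, among others.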
